A study of Caenorhabditis elegans with 2 samples.

Results

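The 7 genes described here encode the main HSP70, HSP110, HSP90 and HSP60 chaperones of the nematode Caenorhabditis elegans, out of 19973 protein-coding genes on the 6 nuclear chromosomes. They were listed by name, located with the Ensembl annotation of the WBcel235 assembly, and grouped by the compartment in which their proteins work. The cytosolic members are hsp-1, hsp-90 and hsp-110, those of the endoplasmic reticulum are hsp-3 and hsp-4, and the mitochondrial ones are hsp-6 and hsp-60. The data are ChIP-seq peaks of the forkhead transcription factor FKH-4 from 2 biological replicates of whole hermaphrodite L1 larvae, collected 6 h after synchronisation by starvation, which followed bleaching. Both replicates are of strain OP100, genotype unc-119(tm4063) III; wgIs100, in which FKH-4 carries GFP and FLAG at its C terminus and GFP was precipitated. All animals carry the transgene and the unc-119 allele, so no untagged animals are among the 2 samples, and the labels used here name no promoter for the transgene. Since whole larvae were used, strong occupancy in few cells and weak occupancy in many cannot be told apart. No number of reads per library was found among the files and labels used here.

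Heat shock proteins of the HSP70 family bind exposed stretches of unfolded polypeptides in cycles of ATP hydrolysis. HSP110 proteins are their nucleotide exchange factors, HSP90 matures signalling proteins passed on by HSP70, and HSP60 forms a barrel in mitochondria in which proteins fold under a lid made by a small co-chaperonin. In worms, hsp-4 is a standard reporter of unfolded proteins in the endoplasmic reticulum, and hsp-6 and hsp-60 are standard reporters of mitochondrial folding stress. Heat shock genes are classically switched on by the factor HSF-1 through heat shock elements, made of alternating GAA and TTC units spaced by any 2 bases.

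FKH-4 peaks called as reproducible lay near 5 of the 7 chaperone genes. These come from the authors' optimal set of 1189 peaks, filtered by the irreproducible discovery rate (IDR), and each peak is placed by its summit, the base of highest signal. Each gene was read from 5 kb upstream of its annotated start to its end. All 3 cytosolic genes had 1 summit there, as did hsp-3 of the endoplasmic reticulum and hsp-60 of the mitochondria, while their compartment partners hsp-4 and hsp-6 had none. Over all coding genes, 10.2% had an IDR summit in such a window, and 11.6% of the 6062 genes whose windows were as long as the members' (7372 to 11062 bp). The same 5 members had their summit within a promoter window, which reached 1000 bp before and 200 bp past the start site (TSS) of a coding transcript, against 4.77% of all coding genes. The count of 5 fell to 3 (hsp-1, hsp-90 and hsp-60) with the 1189 strongest peaks of replicate 1 alone, and to 4 with those of replicate 2, where hsp-3 was lost. It fell to 2 (hsp-1 and hsp-3) when the nearest coding TSS had to be the member's own. No test was made of these counts, because the members are few and were listed with earlier results of these data known. With 3, 2 and 2 genes, the compartments could not be told apart by these counts.

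The bases under the summits are printed because the 5 members with an IDR summit share no searched element, and because the heat shock genes differ in the heat shock elements they hold there. Each sequence covers 75 bases on either side of the IDR summit, from the RefSeq WBcel235 genome, 5′ to 3′ on the coding strand of the member. Capitals mark matches to any of the 13 searched motifs, which include GAANNTTC and TTCNNGAA (both arrangements of a pair of heat shock units). Shorter ones with a match are CCACG, a part of the endoplasmic reticulum stress element, the splice acceptor TTTCAG, the GATA factor site TGATAA, and the CCAAT box. The intervals on ce11 are chrIV:17278424-17278574 on the plus strand for hsp-1, chrV:14685682-14685832 plus for hsp-90, chrIII:8447066-8447216 minus for hsp-110, chrX:6092097-6092247 minus for hsp-3 and chrIII:1619043-1619193 plus for hsp-60.
hsp-1: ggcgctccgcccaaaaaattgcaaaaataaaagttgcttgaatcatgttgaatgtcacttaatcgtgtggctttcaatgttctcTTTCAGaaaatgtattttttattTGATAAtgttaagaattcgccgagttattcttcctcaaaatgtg
hsp-90: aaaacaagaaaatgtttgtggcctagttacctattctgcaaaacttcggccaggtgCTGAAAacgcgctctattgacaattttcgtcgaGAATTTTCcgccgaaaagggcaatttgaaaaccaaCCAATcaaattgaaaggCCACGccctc
hsp-110: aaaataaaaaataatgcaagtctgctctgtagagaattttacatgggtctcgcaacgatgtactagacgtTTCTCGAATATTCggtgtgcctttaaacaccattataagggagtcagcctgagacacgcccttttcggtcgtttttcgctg
hsp-3: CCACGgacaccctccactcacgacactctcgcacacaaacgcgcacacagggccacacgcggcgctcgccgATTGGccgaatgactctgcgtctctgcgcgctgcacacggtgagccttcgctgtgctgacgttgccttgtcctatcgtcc
hsp-60: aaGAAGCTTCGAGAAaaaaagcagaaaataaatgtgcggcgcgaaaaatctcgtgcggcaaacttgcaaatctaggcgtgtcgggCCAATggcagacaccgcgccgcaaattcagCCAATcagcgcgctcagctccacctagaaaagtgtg

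For hsp-4, which has no IDR summit, the 200 bases just upstream of the annotated gene start are shown instead, so that it can be set beside its paralogue hsp-3. They lie at chrII:7352646-7352845 on the minus strand, with capitals as above.
hsp-4: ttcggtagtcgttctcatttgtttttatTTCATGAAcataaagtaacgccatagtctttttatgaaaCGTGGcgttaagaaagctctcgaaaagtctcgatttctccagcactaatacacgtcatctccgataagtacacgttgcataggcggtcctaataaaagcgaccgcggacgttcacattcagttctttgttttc

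Among cytosolic members, hsp-90 had the strongest peak of the whole group. The gene (WBGene00000915) lies on the plus strand of chromosome V at 14684918 to 14688545. Its IDR summit at 14685757 had a signal of 351, the authors' own peak value, which is comparable within a list only. That summit ranked 16 of 1189, and it ranked 16 in the replicate 1 list (signal 138) and 16 in the replicate 2 list (signal 210). The summits of both replicates lay 1 bp from the IDR summit. The 2 libraries therefore gave this peak the same rank and nearly the same position. In the Ensembl annotation the summit is in an intron of the longer hsp-90 transcript, 839 bp inside the gene and 403 bp upstream of the TSS of the shorter one. RefSeq annotates the shorter form alone, with its start at 14686160, and there the summit is upstream of the gene. The nearest coding TSS belongs to the divergent neighbour C47E8.4, annotated as a FAM50 homologue, 272 bp away on the other strand.

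The constitutive cytosolic HSP70 gene hsp-1 (WBGene00002005, chromosome IV, 17278959 to 17281330, plus strand) had its IDR summit 460 bp upstream of its only TSS, at 17278499. Its signal was 155 and it ranked 156 in the IDR set, 154 in replicate 1 (signal 66.8) and 208 in replicate 2 (82.3). The replicate 2 summit was 1 bp from the IDR summit and that of replicate 1 was 70 bp away, so the replicates placed the peak in the same stretch but not at the same base. No other coding TSS was nearer, and 1210 bp separate hsp-1 from the next coding gene upstream, clec-196, a C-type lectin gene. The IDR summit fell just inside the edge of F26D10.23, a non-coding RNA gene of unstated function. That gene lies from 546 to 457 bp upstream of hsp-1 on the same strand. The replicate 2 summit was also inside it, but that of replicate 1, 390 bp upstream of hsp-1, was not. A snoRNA gene, F26D10.24, lies within the hsp-1 gene, and no IDR summit was found there.

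Among the 5 members with an IDR summit, the replicates' ranks differed most at hsp-110, the HSP110 gene (WBGene00016250, chromosome III, 8443910 to 8446909, minus strand). Its IDR summit at 8447141 was 232 bp upstream of the TSS, with a signal of 98.8 and rank 421. The summit ranked 268 in replicate 2 (signal 74.3) but 2105 in replicate 1 (20.9), a rank number 7.85 times as large. Replicate 1 therefore held this peak only outside its 1189 strongest. Of the 1170 IDR peaks with a summit within 200 bp in both replicates, 59 (5.04%) had a larger ratio of replicate 1 to replicate 2 rank, and the median ratio was 1.09. The summit lies between hsp-110 and rpn-3, a proteasome regulatory subunit gene on the other strand whose TSS is 212 bp away. The replicate 2 summit was at the same base, and that of replicate 1 was 37 bp closer to hsp-110, 195 bp upstream of its TSS. The peak is in the promoter windows of both genes and cannot be assigned to either from its position.

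**Figure D1:**
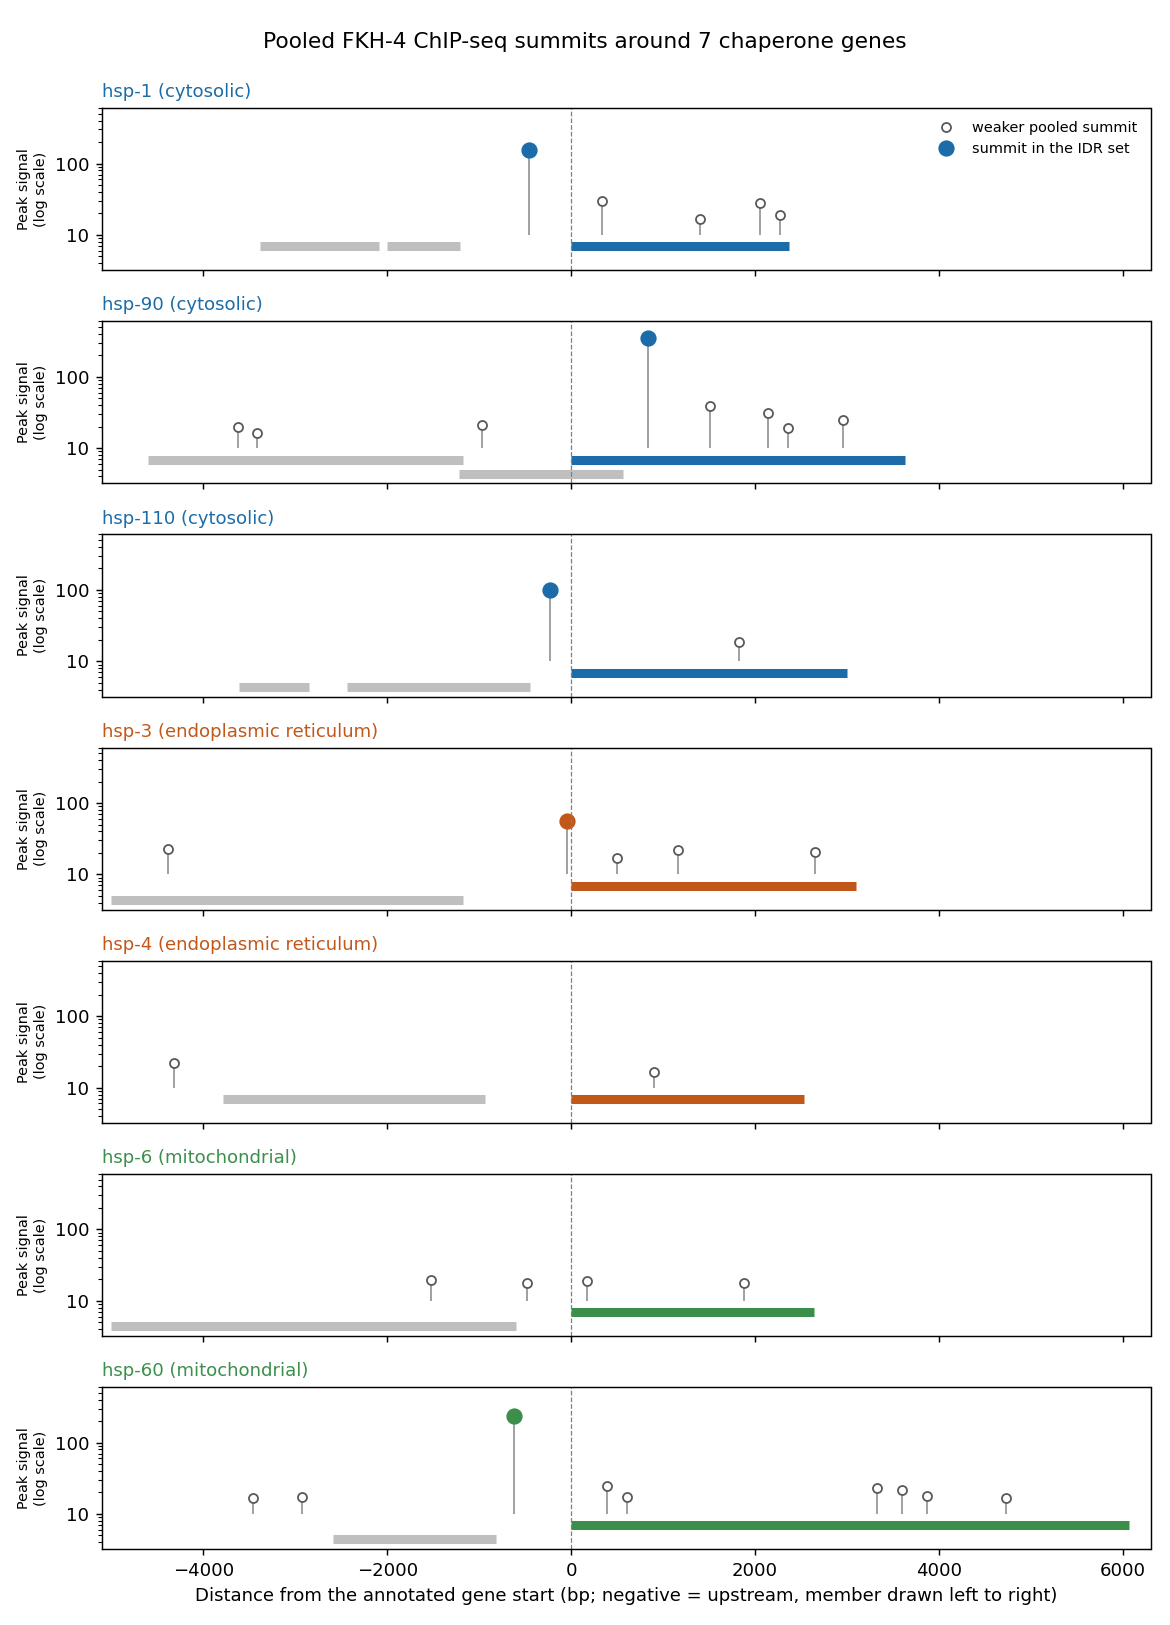
Pooled FKH-4 summits from 5 kb upstream to the gene end of the 7 chaperone genes, by distance from the annotated gene start in bp (x) and peak signal on a log scale (y). Filled points are summits of the IDR set, open points weaker pooled summits, coloured bars the member and grey bars other coding genes, with genes on the opposite strand drawn lower. The filled points stand just upstream of hsp-1, hsp-110, hsp-3 and hsp-60 and inside the annotated hsp-90 gene, and hsp-4 and hsp-6 have open points alone.

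The paralogous BiP genes of the endoplasmic reticulum differed in these lists. BiP is the HSP70 of that compartment. At hsp-3 (WBGene00002007, chromosome X, 6089028 to 6092124, minus strand) the IDR summit at 6092172 lay 48 bp upstream of the gene start, the closest of the 5 by Ensembl starts. It is 387 bp upstream of the start that RefSeq gives, farther than the 232 bp of hsp-110. The next coding gene upstream, C15H9.5 on the other strand, is 1175 bp away, and the summit is also in its 5 kb window. The peak was also the weakest of the 5, with a signal of 55.5 and rank 1055 of 1189, where the lowest IDR signal was 51.7. It ranked 1221 in replicate 2 (signal 30.9) and 3276 in replicate 1 (18.8), so neither replicate alone placed it among its 1189 strongest peaks. The replicate 2 summit was at the same base and that of replicate 1 was 20 bp away, so the lists placed this weak peak within a short stretch.

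At hsp-4 (WBGene00002008, chromosome II, 7350112 to 7352645, minus strand) the pooled relaxed list held 2 weak summits. The relaxed lists include weak peaks by design, as input to the IDR step. The stronger summit, with a signal of 22.3 and rank 12147 of 30000, was 4314 bp upstream and 533 bp before the TSS of haf-2, a transporter gene that lies between it and hsp-4. It was found in replicate 2 (signal 19.3, rank 3058 of 22442), and replicate 1 had no summit in the whole hsp-4 window. The other summit lay 901 bp inside the gene, upstream of an internal TSS, with a signal of 16.39, and neither replicate had a summit within 200 bp of it. The IDR summit nearest to the hsp-4 start was 8044 bp upstream. Whether hsp-3 and hsp-4 differ beyond the error of these lists was not tested.

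Of the mitochondrial pair, hsp-60 had an IDR summit and hsp-6 had none. At hsp-60 (WBGene00002025, chromosome III, 1619742 to 1625803, plus strand) the IDR summit at 1619118 had a signal of 234.9 and rank 56, behind hsp-90 alone among the members. It ranked 69 in replicate 1 (signal 91.3) and 56 in replicate 2 (142.6), with summits 6 and 0 bp from the IDR summit, so both libraries held it among their 100 strongest peaks. It stands 624 bp upstream of hsp-60 and 189 bp upstream of the divergent gene Y22D7AL.10, annotated by RefSeq as a mitochondrial heat shock protein of 10 kDa. Proteins of that name form the lid of the HSP60 barrel. The starts of the divergent genes are separated by 812 bp, and the peak is in the promoter windows of both. The genes of the chaperonin and its co-chaperonin thus have 1 of the stronger peaks between them. It cannot be assigned to either or to both from its position.

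The mitochondrial HSP70 gene hsp-6 (WBGene00002010, chromosome V, 4824124 to 4826760, minus strand) had no strong summit in any list. Its 4 pooled summits had signals from 17.8 to 19.7, and the best of them ranked 17562 of 30000, below the median pooled signal of 20.8. The strongest in replicate 1 lay 219 bp inside the gene (signal 13.3, rank 12293) and the strongest in replicate 2 lay 439 bp upstream (13.6, rank 7993), which is 161 bp from the TSS of the divergent gene C37H5.5. These are different places, and no summit of replicate 1 was within 200 bp of one of replicate 2 in that window. The IDR summit nearest to the hsp-6 start was 37774 bp upstream. As for the pair in the endoplasmic reticulum, the difference between hsp-6 and hsp-60 was not tested.

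**Figure D2:**
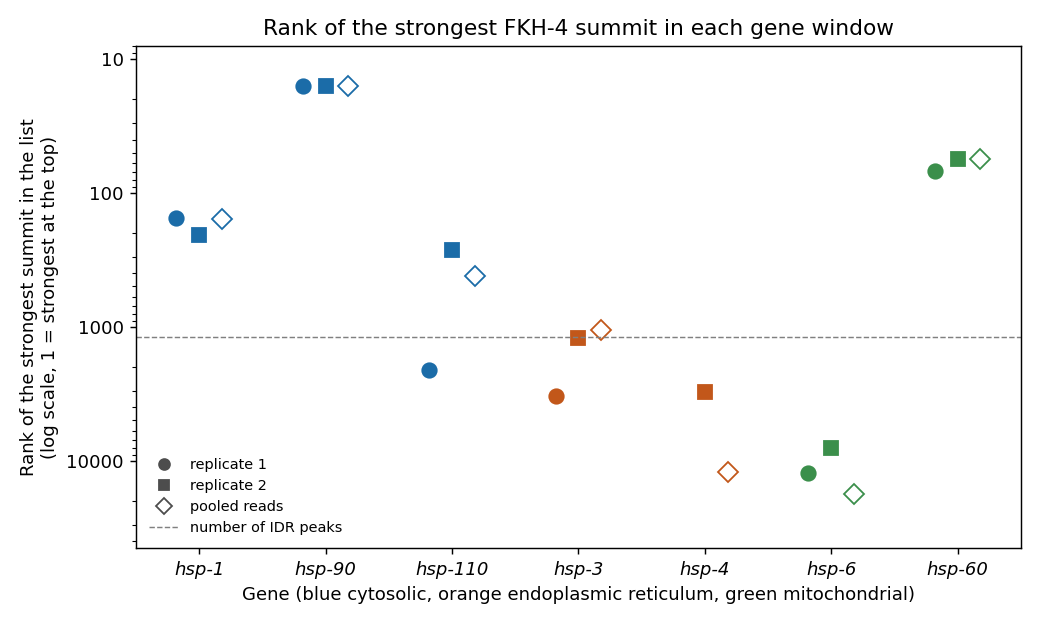
Rank of the strongest summit in each gene's window (y, log scale, 1 at the top) in the lists of replicate 1, replicate 2 and pooled reads for the 7 genes (x), with a dashed line at 1189, the number of IDR peaks. The symbols lie level for hsp-90 at rank 16 and lie apart for hsp-110 at 2105 and 268, and hsp-4 has no symbol for replicate 1 because that list held no summit in its window.

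In the order of their strongest pooled signal, hsp-90 came first and hsp-6 last. The order was hsp-90 (351), hsp-60 (234.9), hsp-1 (155), hsp-110 (98.8), hsp-3 (55.5), hsp-4 (22.3) and hsp-6 (19.7). In replicate 1 the order was hsp-90, hsp-60, hsp-1, hsp-110, hsp-3 and hsp-6, with hsp-4 at no summit, and in replicate 2 it was hsp-90, hsp-60, hsp-1, hsp-110, hsp-3, hsp-4 and hsp-6. The first 5 places were the same in all lists, but the steps between them were not: in replicate 1 hsp-1 had a signal of 66.8 and hsp-110 only 20.9, near the 18.8 of hsp-3 and the 13.3 of hsp-6. Neighbouring places rest on 2 libraries, and signals cannot be compared across lists, so no spread could be put on a place. The median over the members was 98.8, against 23.2 over all coding genes. Against the strongest pooled summit of every coding gene's window, hsp-90 was above 99.8% of genes, hsp-60 above 99.4%, hsp-1 above 98.3%, hsp-110 above 95.96% and hsp-3 above 90.7%. By the same measure hsp-4 was above 46.0% and hsp-6 above 33.3%. These percentiles depended on the list. In replicate 1 hsp-110 was above 84.4% of coding genes, hsp-3 above 77.8% and hsp-6 above 42.9%. In replicate 2 hsp-110 was above 97.2%, hsp-3 above 89.4%, hsp-4 above 78.5% and hsp-6 above 59.1%. Both replicates put hsp-90, hsp-60 and hsp-1 above at least 97.7% of coding genes.

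**Figure D3:**
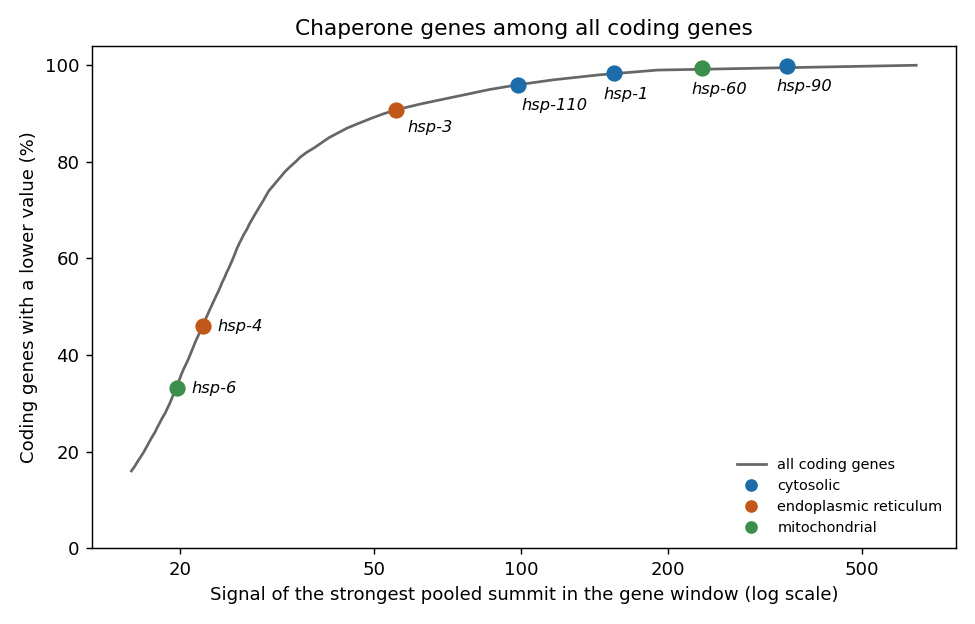
Share of coding genes (y, percent) whose strongest pooled summit has a lower signal than the value on x (log scale), with genes without any summit counted as 0. The 7 chaperone genes are marked by compartment: the cytosolic genes and hsp-60 lie at 95.96% or above, hsp-3 at 90.7%, and hsp-4 and hsp-6 at 46.0% and 33.3%.

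Per kb of gene, pooled summits were more numerous inside hsp-1 and hsp-90 than inside the other members. Every member had at least 1 pooled summit in its window, as did 84.1% of coding genes, and 6 of 7 had summits of both replicates, as did 68.3%, so these counts on their own set the members apart little. Inside the gene, hsp-1 held 4 pooled summits, or 1.69 per kb, and hsp-90 held 5, or 1.38 per kb, where all coding genes together held 0.297 per kb. This density was higher than in 98.7% of coding genes for hsp-1 and in 97.6% for hsp-90. In replicate 1 the densities were 2.11 per kb in hsp-1 and 0.827 in hsp-90, and in replicate 2 they were 0.843 and 1.38, against 0.302 and 0.214 per kb over all coding genes. The IDR summit of hsp-90 is one of its 5, since it lies inside the annotated gene. Apart from that one, these pooled summits were weak by the deposited −log10 q values. The values were 0.0231 to 0.234 in hsp-1 and 0.025 to 0.807 in hsp-90, against 3.30 at the IDR summit. The densities therefore count mostly weak listed peaks and do not show occupancy along the genes. In hsp-110 and hsp-4 the pooled density was 0.333 and 0.395 per kb, near that of all genes. It was 0.99 in hsp-60, above 94.4% of coding genes, and 0.495 in each replicate. In hsp-3 it was 0.969, above 94.0%, and in hsp-6 0.758, above 89.1%, but replicate 2 had no summit inside either gene, and replicate 1 had 0.969 per kb in hsp-3 and 0.379 in hsp-6.

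In all, 30 pooled summits in the members' windows were outside the IDR set, with signals from 16.09 to 39.4, and 21 of them lay inside the member gene. Of the 30, 6 (20%) had a summit within 200 bp in both replicates, against 26.5% of the 28811 such peaks genome-wide. The highest signal, 39.4, was 1508 bp inside the annotated hsp-90 gene, and the next, 31.0, was 2138 bp inside it. Most of these weak summits were therefore seen in 1 replicate or none.

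The searched forkhead forms were absent from all 5 summit windows of the members. Only 3 exact forms were searched, and related letters do occur in the printed stretches. The shorter run TAAACA, common to GTAAACA and ATAAACA, is in the hsp-110 window. The hsp-90 window holds TGTTTGT, which reads ACAAACA on the opposite strand, a form that was not searched. The form GTAAACA, searched on both strands within 100 bp of a summit, matched none of them and 2.27% of all IDR windows. The form ATAAACA matched none of them and 4.46% of IDR windows, and GTCAACA none and 1.77%. In the 200 bp upstream of coding gene starts, GTAAACA matched 3.47% of genes, ATAAACA 7.06% and GTCAACA 2.07%. With shares this low among IDR windows, absence from 5 windows does not set the members apart from other IDR peaks. A missing match says only that those letters are not in the window. Heat shock element pairs were found more widely. GAANNTTC, which reads the same on both strands, was within 100 bp of the summit at 4 of 5 members (hsp-1, hsp-90, hsp-110 and hsp-60), against 11.02% of all IDR windows. TTCNNGAA was there at 3 of 5 (hsp-90, hsp-110 and hsp-60), against 11.1%. Within 50 bp the counts were 2 and 1 of 5, with 4.63% of IDR windows for each motif. The splice acceptor TTTCAG was within 100 bp at hsp-1 and hsp-90 (19.5% of IDR windows), and the GATA factor site TGATAA at hsp-1 alone (9.25%), as was a GAGA repeat, GAGAGAG (14.4%). The unfolded protein response site TGACGTGG, the bZIP site TGACGTCA and the E-box CACGTG matched none of the 5.

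A longer heat shock element of 3 alternating units stood directly under the IDR summit of hsp-110, which is also the replicate 2 summit. It spans the bases from 5 before to 7 after that summit, and in the sequence printed above it is the only run of capitals. The replicate 1 summit, 37 bp closer to the gene, lies outside the element. At hsp-60 such an element spans 73 to 61 bases before the summit, at the start of the printed stretch. Within 100 bp, 19 of the 1189 IDR windows (1.6%) held an element of 3 units, these 2 included. The 200 bases upstream of the gene start were searched as well, and there the 3 cytosolic genes hsp-1, hsp-90 and hsp-110 held such an element and hsp-3, hsp-4 and hsp-60 did not, against 1.24% of all coding genes. The hsp-1 element lies 144 to 132 bp before the gene start, well downstream of the FKH-4 summit at 460 bp. The hsp-90 gene holds 2, at 85 to 73 and at 15 to 3 bp before the Ensembl start, and hsp-110 holds a second one at 115 to 103 bp. Both hsp-90 elements lie within the neighbour C47E8.4, far upstream of the RefSeq start of hsp-90 at 14686160. RefSeq starts also differ for hsp-3 and hsp-4, and the bases searched are those before the Ensembl starts. The contrast between cytosolic and other members therefore depends on the annotation. The search for 3 units was added after the sequences had been seen, and a match is not evidence that HSF-1 binds there.

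CCAAT, the letters of the promoter element bound by NF-Y factors and a motif added after the sequences had been seen, was within 50 bp of the summit at hsp-3 and hsp-60. It occurred once at hsp-3, across the summit itself on the opposite strand, and at 2 places at hsp-60, 10 and 40 bases after the summit. In hsp-90 it began 49 bases after the summit and so ran past the edge of the 50 bp window. Of all IDR windows, 19.9% held CCAAT within 50 bp, and within 100 bp it was 35.6%, so a match is common. CCACG was within 100 bp at hsp-3 (2 places) and hsp-90, against 24.98% of IDR windows, and also upstream of hsp-4, against 14.7% of coding genes. The hsp-3 window was rich in G and C, at 64.2% of the 151 bases, above 99.7% of IDR windows, whose median was 41.7%. The hsp-1 window was the lowest among the members with 33.8%, above 11.2% of IDR windows. The hsp-110, hsp-90 and hsp-60 windows had 41.7%, 43.05% and 51.0%.

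Other genes of the folding machinery were read from 7 lists of 76 annotated genes. An IDR promoter summit was found at 15 of them (19.7%), against the 4.77% of all coding genes given above. Of 5 other HSP70 and HSP110 family genes, 2 had one, and these are a divergent pair known by sequence names that share a single summit with a signal of 70.3. The gene hsp-70 had no IDR summit in its 5 kb window, and another of the 5 had one there but outside its promoter window. Of 3 genes in the HSP90 and co-chaperonin list, enpl-1, which encodes the HSP90 of the endoplasmic reticulum, had a summit 12 bp inside its TSS (signal 81.5, rank 584), and the co-chaperonin gene had the one it shares with hsp-60. The mitochondrial HSP90 gene trap-1 had none.

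Co-chaperones that work with the cytosolic members had an IDR promoter summit at 5 of 13 genes. The HSP90 ATPase activator gene ahsa-1 had a promoter signal of 233 (rank 59), although the TSS of another gene is nearer. The HSP70 nucleotide exchange factor gene bag-1 followed with 178 (rank 112), and the J-domain genes dnj-12 with 139, dnj-13 with 85.1 and dnj-19 with 69.9. The summits of dnj-12 and dnj-19 were also nearer to the TSS of another gene, and hip-1 had its IDR summit outside the promoter window. In the endoplasmic reticulum list 3 of 14 had one, namely cdc-48.1 (signal 220, rank 71), which extracts proteins for degradation, the calreticulin gene crt-1 (102, rank 400) and the disulfide isomerase gene pdi-6 (71.4). In the mitochondrial list 2 of 15 had one, the import receptor gene tomm-20 (99.9) and the protease gene ppgn-1 (52.02, rank 1172). Small heat shock proteins had 1 of 12 (8.33%, against 4.77% of all coding genes), sip-1 (63.3), whose summit is nearer to the TSS of sly-1.

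None of the 14 stress regulators, such as hsf-1, xbp-1, ire-1 and atfs-1, had an IDR summit in its promoter window. Within the 5 kb window 1 of them, atf-4, had one. Over all coding genes the shares were 4.77% and 10.2%, so these counts over 14 genes do not set the regulators apart. The median strongest pooled signal was 98.8 for the members, 81.5 for the HSP90 and co-chaperonin list, 55.4 for the other HSP70 and HSP110 genes, 48.102 for co-chaperones, 38.8 for the endoplasmic reticulum list and 30.4 for the mitochondrial one. For stress regulators it was 28.1 and for small heat shock proteins 22.6, close to the 23.2 of all coding genes. The lists are short, 1 of their peaks is that of hsp-60, and they were not tested.

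**Figure D4:**
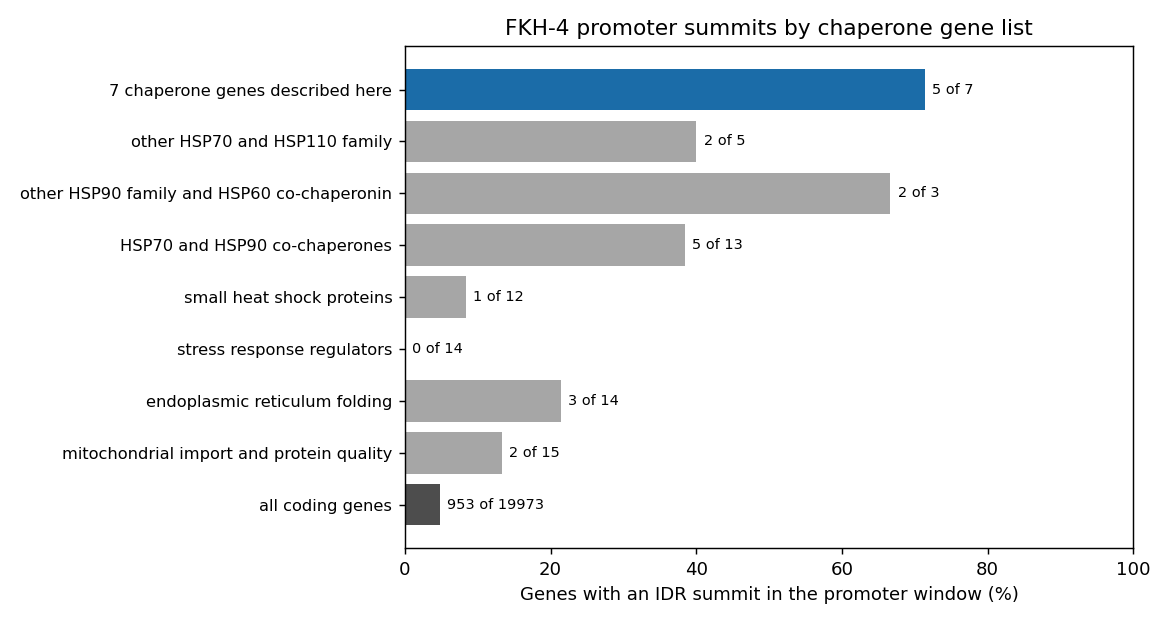
Share of genes (x, percent) with an IDR summit in the promoter window for the 7 chaperone genes, 7 other lists and all coding genes (y), with the counts beside the bars. The bars run from 5 of 7 members through 5 of 13 co-chaperones and 0 of 14 stress regulators to 953 of 19973 coding genes.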

How the data were processed

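Peak lists of 2 replicates of FKH-4 ChIP-seq in L1 larvae were used on the ce11 build, which has the coordinates of WBcel235. Per the sample listings deposited with the data, relaxed lists were made for each replicate and for both sets of reads together, all with the same control file, and these 3 went into the IDR set. No aligner, caller, version or IDR threshold is named in the labels or headers read here. The signal of each peak and its −log10 q value are as deposited by the authors. The scale of the signal is not stated, so it ranked peaks within a list only, and q values entered no test. The pooled and replicate 1 lists end at 30000 peaks and replicate 2 at 22442, which bounds how weak a listed peak can be. Lists on ce10 were not used here, and the sequence upstream of hsp-6 is not reported here.

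Gene positions came from Ensembl release 115, and sequences and RefSeq starts from the RefSeq WBcel235 files. Python 3.11.15, pandas 2.3.3 and NumPy 2.4.6 were used, and the counting was tested on planted summits. Motifs were searched on both strands, with overlaps counted. The members, gene lists and motifs were chosen with earlier results of these data known. Of 82 names in the lists, 76 matched. Genes named are the members, genes with the nearest TSS to a member's IDR summit, and list genes with an IDR promoter summit; neighbours, unbound list genes, hip-1 and atf-4 were named after their values were seen.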

Additional observations from a re-analysis of the deposited data

How the results depend on the processing

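Of 49 recounts of the main results, 34 stayed within 1.5 times the main count. Against 5 members with an IDR summit, a peak set made of the strongest 1189 peaks of 1 replicate left 3 (without replicate 2) to 4 (without replicate 1); without replicate 2, hsp-110 and hsp-3 were lost, and without replicate 1, hsp-3. In the endoplasmic reticulum no member was left without either replicate (0 and 0), or among the 594 strongest IDR peaks (0), and all pooled peaks gave 2. Counts of promoters were 3 to 4 when a replicate was left out. Counting only summits whose nearest coding TSS is the member's own left 2 members, hsp-1 and hsp-3, of which 1 is cytosolic and 0 mitochondrial. All pooled peaks gave 2 mitochondrial members. Summits of both replicates were present at 6 members, and at 3 when only the 1189 strongest peaks of each were read. The 2036 coding genes with an IDR summit in the window became 1147 with 1 kb upstream, 1118 with the 594 strongest peaks, 956 with the nearest TSS and 16800 with all pooled peaks, and 2019 to 2070 when a replicate was left out. A narrower promoter window, which left out hsp-60 alone, and the upstream reach kept the members' count within 1.5 times. RefSeq starts, an alternative chosen after seeing the data, gave the same 5 promoters. The cause of these changes was not tested. No paired analysis was possible because both samples belong to 1 group. Unknown read depth limits what the absence of a peak at hsp-4 and hsp-6 can show.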
